A study of Populus alba x Populus glandulosa with 18 samples.

Results

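The deposited expression table of 84K poplar roots holds 4823 loci whose IDs begin with NewGene_, beside 66336 IDs that begin with PAxG. A NewGene locus was taken as expressed where it reached at least 1 FPKM (fragments scaled by transcript length and library size) in at least 3 of the 18 libraries. By this rule 2726 loci were kept, out of 40951 IDs of both kinds that met the same minimum and 71159 IDs in all. The other 38225 were PAxG IDs, and they are the background here.

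84K, a poplar clone widely used for transformation, is a hybrid of Populus alba x Populus glandulosa. bHLH58 and bHLH151 belong to the basic helix-loop-helix transcription factors, which bind DNA as dimers. Root RNA was sequenced from 5 transgenic lines and the wild type, with 3 libraries in each group. The lines were bhlh58-KO (knockout line 6), bhlh151-KO (knockout line 40), bhlh58/151-KO (line 32, a knockout of both genes), bHLH58-OE (overexpression line 20) and bHLH151-OE (overexpression line 17), and the reference was wild-type 84K (WT). As every genotype is represented by a single line, effects of the genotype and of the line cannot be told apart. The labels leave unsaid whether replicate libraries are separate plants. P-values therefore measure only the spread between these libraries, which may be technical. The sequencing was meant to find regulatory genes upstream and downstream of a root phenotype.

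In RNA-seq work, names of this kind are commonly given to transcribed stretches that reads reveal outside the genes of the annotation in use. Such loci can be protein-coding genes that an annotation missed, long non-coding RNAs, transcripts of mobile elements, or parts of neighbouring genes. How the loci of this table were defined is not given in the sources used here, and no sequence or position was at hand, so none is named by function. The table pairs no ID with a gene name, and root or shoot marker lists and the targeted genes could not be matched to it.

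Every NewGene ID had a value above 0 in at least 1 library, whereas 11279 PAxG IDs (17.0%) were listed at 0 in all 18. Whether the loci were defined from reads of these libraries is not known here. If they were, this contrast was fixed in advance. The expressed share was close in both families, 56.5% of all NewGene IDs and 57.6% of all PAxG IDs. Among IDs above 0 somewhere, it was 56.5% for NewGene and 69.4% for PAxG, a comparison with the same limit. At the edge of the rule, NewGene_7096 had a third-highest value of 1.0004 FPKM and was kept, and NewGene_3715 had 0.9986 FPKM and was not.

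The expressed NewGene loci were weaker than the PAxG IDs in the lower part of the range and as strong at the top. Their median level, as a mean over the 18 libraries, was 3.76 FPKM, against 4.75 FPKM for PAxG IDs. The lower quartile was 1.58 FPKM for NewGene and 2.20 FPKM for PAxG, and the 95th percentile was 46.8 FPKM for NewGene and 46.3 FPKM for PAxG. A mean under 2 FPKM was found in 31.8% of NewGene loci and 22.4% of PAxG IDs. At the other end, 53 NewGene loci (1.94%) and 671 PAxG IDs (1.76%) had a mean of 100 FPKM or more. FPKM divides by the length of the transcript model, and the lengths of the NewGene models are not known here.

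**Figure D1:**
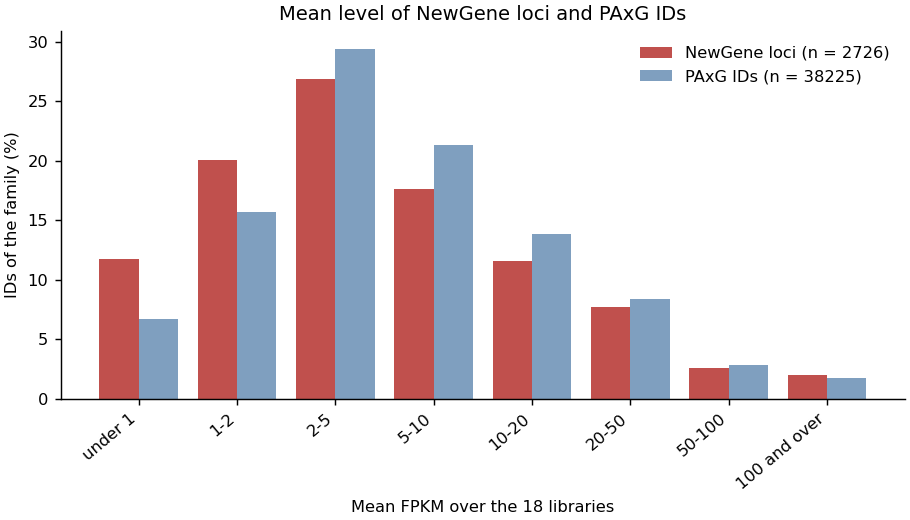
Share of the IDs of each family (vertical axis, %) by mean FPKM over the 18 libraries (horizontal axis, bins of unequal width). NewGene loci (red) exceed PAxG IDs (blue) in the bins under 2 FPKM and again at 100 FPKM and over, where they are 1.94% against 1.76%.

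A small number of loci carried much of the NewGene signal. The top 1% (27 loci) held 28.8% of the summed NewGene level, while the top 1% of PAxG IDs (382) held 21.0% of theirs. The strongest locus was NewGene_689. Its FPKM values were 1395, 1434 and 1400 for bhlh58-KO, 953, 943 and 920 for bhlh151-KO, and 1039, 996 and 1098 for bhlh58/151-KO. In bHLH58-OE it had 1306, 1491 and 1326 FPKM, in bHLH151-OE 975, 944 and 1066, and in WT 1240, 1210 and 1401. All libraries of both bHLH151 lines and of the double knockout lay below every WT library. The fall was called in bhlh151-KO (log2 fold change -0.45 with SE 0.06, limma adjusted p = 3.46e-06), bHLH151-OE (-0.37 with SE 0.06, limma adjusted p = 8.45e-05) and bhlh58/151-KO (-0.30 with SE 0.06, limma adjusted p = 0.000855). The rule for a call is a Benjamini-Hochberg adjusted p under 0.05 over all 40951 tested IDs. Fold changes are differences of log2(FPKM + 1), which for weak loci come out too small. On this scale the median over all tested IDs against WT was itself -0.11 in bhlh151-KO, -0.09 in bHLH151-OE and -0.06 in bhlh58/151-KO. This shift is not subtracted from the falls given here.

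NewGene_2961, next in level, was lowest in bhlh151-KO, at 741, 718 and 793 FPKM, against 999, 932 and 1067 in WT (log2 fold change -0.41, limma adjusted p = 8.43e-06). The third, NewGene_7107, was lowest in bHLH151-OE, at 768, 786 and 740 FPKM, against 1019, 911 and 924 in WT (-0.31, limma adjusted p = 0.00074). In neither locus did the libraries of these groups overlap. In a bulk sample, fewer cells of a type and less RNA per cell cannot be told apart.

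The summed level of the 2726 loci moved little between groups. It made up 6.98 ± 0.00985% of the summed FPKM in bhlh58-KO, 6.80 ± 0.0419% in bhlh151-KO and 6.86 ± 0.0218% in bhlh58/151-KO. In bHLH58-OE the share was 7.01 ± 0.0397%, in bHLH151-OE 6.79 ± 0.0146% and in WT 6.83 ± 0.0353% (SD, n = 3 libraries each). All libraries of bhlh58-KO and bHLH58-OE lay above every other library. As a sum over chosen loci, the share was given no test.

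In the deposited values, fewer loci reached 1 FPKM in the bHLH151 lines and the double knockout. At 1 FPKM or more stood 2411 ± 18.1 loci in bhlh58-KO, 2266 ± 24.4 in bhlh151-KO, 2335 ± 18.5 in bhlh58/151-KO, 2439 ± 25.2 in bHLH58-OE, 2347 ± 12.7 in bHLH151-OE and 2403 ± 23.1 in WT (SD, n = 3 each). PAxG IDs had the same low groups. The share at 1 FPKM or more in all libraries of the group was 76.0% of NewGene loci and 84.8% of PAxG IDs in bhlh151-KO, against 82.3% of NewGene loci and 89.1% of PAxG IDs in WT. In these groups the median log2 fold change against WT over all tested IDs was below 0, as given above. It was 0.009 in bhlh58-KO and 2.1e-06 in bHLH58-OE. Detection was counted on the deposited values only. Library depth is unknown for this table, so the parts of depth and of scaling in the number detected were not tested.

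**Figure D2:**
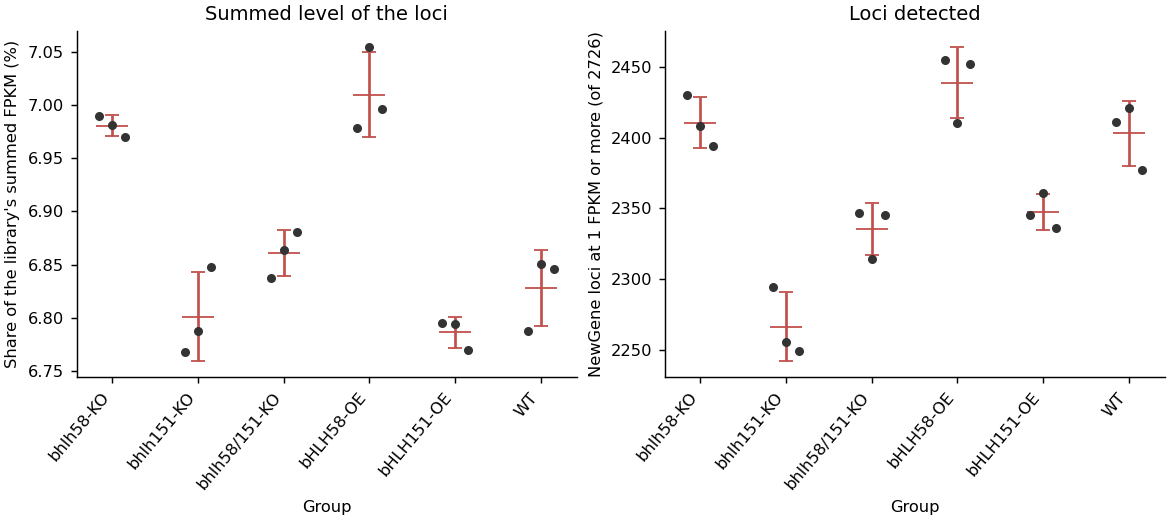
Left, the share of each library's summed FPKM held by the 2726 NewGene loci (%); right, the number of these loci at 1 FPKM or more. Points are libraries, red bars the mean and SD of a group (n = 3), and neither axis starts at 0. All bhlh151-KO libraries have fewer detected loci (2249 to 2294) than any library of the other groups.

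At the fixed minimum of 1 FPKM, NewGene loci were detected less broadly. More of them had a mean under 2 FPKM (31.8%, PAxG 22.4%), and breadth at equal level was not compared. In all 18 libraries, 1878 loci (68.9%) reached 1 FPKM, against 79.2% of PAxG IDs. In exactly 3 libraries it was 67 loci (2.46%), against 573 PAxG IDs (1.499%). For 9 loci (0.330%), against 49 PAxG IDs (0.128%), these 3 libraries were those of 1 group, so that such a locus entered the table through the group in which it was high and had to differ. An exact 0 in every library of at least 1 group was listed for 16 loci (0.587%) and 39 PAxG IDs (0.102%).

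Most expressed NewGene loci differed among the 6 groups, at the rate of the table as a whole. The moderated F-test called 1532 of 2726 loci (56.2%), while it called 56.7% of all tested IDs and 56.7% of PAxG IDs. The call depended on level in both families. Under 2 FPKM, 44.9% of NewGene loci and 41.5% of PAxG IDs were called, and at 20 FPKM and over 75.6% of NewGene loci and 80.9% of PAxG IDs. Replicate spread on the log2(FPKM + 1) scale was larger for NewGene in each of these bins, with a median SD of 0.207 (PAxG 0.191) under 2 FPKM and 0.104 (PAxG 0.0953) at 20 FPKM and over. The median range of the 6 group means under 2 FPKM was likewise larger for NewGene, 0.56 against 0.49 for PAxG on the same log2 scale. These shares are descriptions of the 2 families and were not tested against each other.

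**Figure D3:**
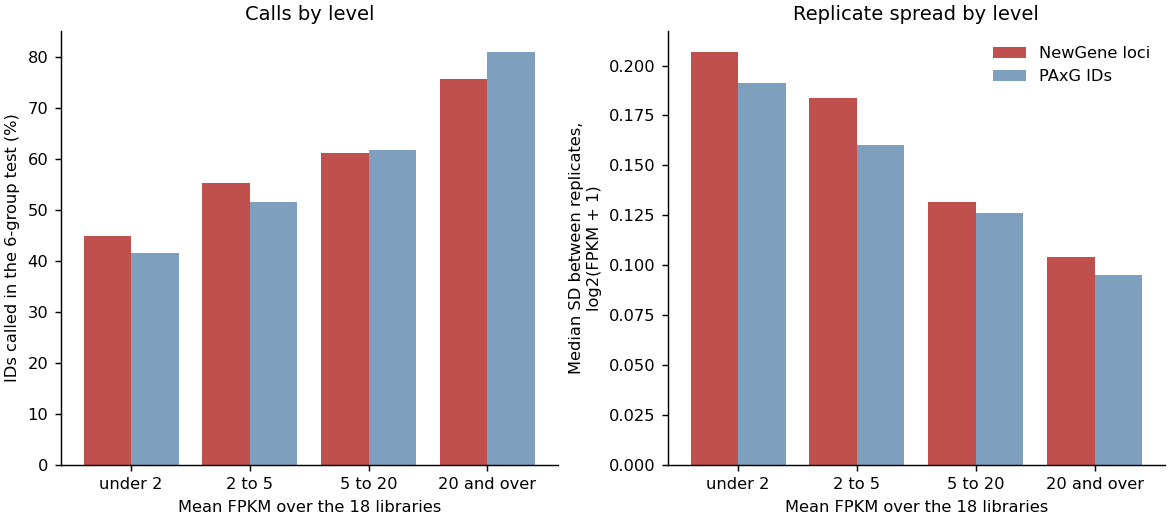
Left, the share of IDs called in the 6-group test (limma adjusted p under 0.05, %), and right, the median SD between replicates on the log2(FPKM + 1) scale, both by mean FPKM. NewGene loci (red) were called more often than PAxG IDs (blue) under 2 FPKM (44.9% against 41.5%) and less often at 20 FPKM and over (75.6% against 80.9%), with the larger replicate SD in every bin.

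In the deposited values, among the 1532 called loci, the lowest group mean fell most often in bhlh151-KO, with 622 loci (40.6%, PAxG 41.8%), and the highest most often in WT, with 460 (30.0%, PAxG 30.7%). The bhlh151-KO line came next as the highest group, with 303 loci (19.8%, PAxG 20.8%). The line most rarely highest was bHLH151-OE, with 120 loci (7.83%, PAxG 6.66%). These ranks depended on the scaling, which was varied after the values were seen. Under median-of-ratios scaling, bhlh151-KO was lowest for 447 (30.8%) and highest for 431 (29.7%) of 1449 called loci, against 402 lowest and 347 highest in WT, and bhlh58/151-KO was the group most rarely highest (142). Quantile normalization gave 431 lowest and 358 highest of 1375 called loci for bhlh151-KO, against 335 lowest and 365 highest in WT, with bhlh58/151-KO again most rarely highest (128).

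The smallest p-values of this test belonged to NewGene_1219 (limma adjusted p = 2.69e-15) and NewGene_6264 (1.83e-14), and the loci shared an order of levels. The ranking was by unadjusted p, and NewGene_1461 had the same adjusted p as NewGene_6264. In FPKM, NewGene_1219 had 72.2, 69.0 and 67.3 in bhlh151-KO, 25.6, 25.7 and 26.6 in bHLH151-OE, and 11.7, 15.0 and 11.0 in bhlh58/151-KO. It had 6.13, 6.20 and 7.47 FPKM in bhlh58-KO, 4.66, 4.72 and 5.05 in bHLH58-OE, and 3.70, 4.03 and 3.51 in WT. No library of a group overlapped with a library of another group. For NewGene_6264, FPKM was 147, 140 and 143 in bhlh151-KO, 58.1, 57.8 and 54.2 in bHLH151-OE, and 28.0, 25.2 and 26.1 in bhlh58/151-KO. It had 20.9, 19.5 and 19.9 FPKM in bhlh58-KO, 15.9, 17.7 and 13.1 in bHLH58-OE, and 15.9, 11.8 and 12.7 in WT. Only bHLH58-OE and WT overlapped, and they were not called different (0.20 with SE 0.10, limma adjusted p = 0.286).

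At the opposite end, the steadiest loci with a mean of at least 5 FPKM were NewGene_361 and NewGene_4605. NewGene_361 ran from 90.5 to 105 FPKM over all 18 libraries (coefficient of variation 0.0378), and NewGene_4605 from 17.5 to 20.0 FPKM (0.0446). The F-test called neither (limma adjusted p = 0.788 and 0.338, in the same order).

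In bhlh58-KO against WT, 596 loci were called (21.9%, beside 22.4% of all tested IDs). Of these, 317 rose (11.6%, all IDs 12.9%) and 279 fell (10.2%, all IDs 9.51%). Under median-of-ratios scaling 306 rose and 279 fell, under quantile normalization 292 and 321, and with TPM rescaling 297 and 301. In the deposited values the median log2 fold change of the loci was -0.005, and 40 (1.47%, all IDs 1.24%) were called at 2-fold or more. Of those, 24 were higher (0.880%, all IDs 0.759%) and 16 lower (0.587%, all IDs 0.481%). The largest rises were those of NewGene_1136 and NewGene_1392. NewGene_1136 had 105, 91.8 and 100.2 FPKM in bhlh58-KO, against 13.0, 13.1 and 11.8 in WT (log2 fold change 2.87 with SE 0.09, limma adjusted p = 8.47e-13). NewGene_1392 had 98.6, 81.2 and 96.8 FPKM in bhlh58-KO, against 13.8, 13.0 and 11.5 in WT (2.76 with SE 0.10, limma adjusted p = 2.26e-12). The largest falls among loci that met the naming rule were smaller. NewGene_49 had 1.62, 1.28 and 1.42 FPKM in bhlh58-KO, against 5.12, 7.74 and 8.40 in WT (-1.70 with SE 0.20, limma adjusted p = 5.67e-06), and NewGene_4646 had 3.71, 4.13 and 5.09, against 15.7, 14.7 and 15.5 in WT (-1.63 with SE 0.13, limma adjusted p = 1.21e-07). The fall of NewGene_49 was larger in bhlh151-KO (-1.89, limma adjusted p = 1.98e-07). It was also called in bhlh58/151-KO (-0.91) and bHLH151-OE (-0.82), but not in bHLH58-OE (-0.62, limma adjusted p = 0.0775).

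WT stood apart from all 5 lines for NewGene_1136, NewGene_1392, NewGene_4646 and NewGene_723. NewGene_1136 averaged 72.8 ± 3.33 FPKM in bhlh58/151-KO, 55.6 ± 6.18 in bhlh151-KO, 66.2 ± 8.79 in bHLH58-OE and 42.2 ± 3.70 in bHLH151-OE, against 12.7 ± 0.734 in WT (SD, n = 3 each). NewGene_1392 had its lowest transgenic level in bHLH151-OE too, at 47.1, 44.7 and 40.4 FPKM (1.71 with SE 0.10, limma adjusted p = 3.44e-10 against WT). NewGene_4646 went the other way, having 6.37 ± 0.468 FPKM in bhlh151-KO, 8.88 ± 1.35 in bHLH58-OE and 8.41 ± 0.410 in bHLH151-OE, against 15.3 ± 0.510 in WT, and it was called lower in each line. NewGene_723 was called lower in each line as well. It had 1.78 ± 0.224 FPKM in bhlh58-KO, 2.74 ± 0.878 in bhlh58/151-KO and 1.81 ± 0.441 in bHLH151-OE, against 5.76 ± 2.04 in WT. Its highest bhlh58/151-KO library (3.70) lay just below its lowest WT library (3.83). These comparisons use the same 3 WT libraries, so their agreement in direction is not independent.

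In bhlh151-KO against WT, 1269 loci were called (46.6%, beside 48.4% of all tested IDs), more than in any other pairwise comparison made. Of these, 465 rose (17.1%, all IDs 17.6%) and 804 fell (29.5%, all IDs 30.8%). The share of falls among called loci was 63.4% as deposited, 48.8% under median-of-ratios scaling and 51.7% under quantile normalization. The median log2 fold change was -0.11 over all IDs and -0.11 over the NewGene loci, and median-of-ratios scaling brought the first to -0.005. At 2-fold or more, 202 loci (7.41%, all IDs 7.43%) were called, 106 higher (3.89%, all IDs 3.67%) and 96 lower (3.52%, all IDs 3.76%).

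NewGene_1461 had the largest rise, at 48.0, 47.8 and 46.4 FPKM in bhlh151-KO, against 2.14, 1.01 and 1.46 in WT (log2 fold change 4.28 with SE 0.12, limma adjusted p = 2.98e-15; 4.39 above the median of all IDs; 4.92 with a pseudocount of 0.1). NewGene_1219 followed with the values given above (3.89 with SE 0.09, limma adjusted p = 4.80e-16; 4.01 above that median). NewGene_723 was near 0 in bhlh151-KO, at 0, 0.154 and 0.0608 FPKM, against 3.83, 5.58 and 7.89 in WT (-2.62 with SE 0.20, limma adjusted p = 2.46e-09; -2.50 relative to that median). With a pseudocount of 0.1 in place of 1 this log2 fold change was -5.14, and with TPM rescaling -3.37. NewGene_3128 had 3.91, 4.22 and 3.21 FPKM in bhlh151-KO, against 25.1, 26.5 and 21.3 in WT (-2.40 with SE 0.11, limma adjusted p = 1.05e-12; -2.29 relative to that median).

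In bhlh58/151-KO against WT, 804 loci were called (29.5%, beside 28.8% of all tested IDs), 338 higher (12.4%, all IDs 12.6%) and 466 lower (17.1%, all IDs 16.3%). Falls were 58.0% of called loci in the deposited values. They stayed the majority after TPM rescaling (63.4%) and quantile normalization (54.0%), but were 46.8% when scaled by median of ratios. Of 65 loci called at 2-fold or more (2.38%, all IDs 1.98%), 52 were higher (1.91%, all IDs 1.52%) and 13 lower (0.477%, all IDs 0.459%). The loci with the largest rises were again NewGene_1392, at 100.1, 80.5 and 95.3 FPKM (2.75 with SE 0.10, limma adjusted p = 2.33e-12), and NewGene_1136, at 71.2, 70.5 and 76.6 FPKM (2.43 with SE 0.09, limma adjusted p = 5.77e-12). NewGene_3128 fell to 9.08, 9.49 and 7.77 FPKM in the double knockout (-1.37 with SE 0.11, limma adjusted p = 4.65e-08), above its level in bhlh151-KO in every library. NewGene_4646 had 4.33, 7.23 and 4.94 FPKM in the double knockout (-1.35 with SE 0.13, limma adjusted p = 6.14e-07).

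In bHLH58-OE against WT, 165 loci were called (6.05%, beside 5.37% of all tested IDs), 101 higher (3.71%, all IDs 3.30%) and 64 lower (2.35%, all IDs 2.07%). At 2-fold or more there were 23 called loci (0.844%, all IDs 0.413%), of which 15 were higher (0.550%, all IDs 0.227%) and 8 lower (0.293%, all IDs 0.186%). The count of 165 was lower on leaving out any 1 of the 6 libraries (102 to 134), which also leaves fewer libraries in a group. It was 102 without WT replicate 1, 103 without WT replicate 3 and 105 without bHLH58-OE replicate 1. NewGene_1392 had 79.4, 81.8 and 67.6 FPKM in bHLH58-OE (2.49 with SE 0.10, limma adjusted p = 2.59e-11), and NewGene_1136 had 71.4, 71.1 and 56.1 (2.29 with SE 0.09, limma adjusted p = 2.59e-11), all far above their WT libraries. NewGene_723 had 0.153, 0.661 and 0.435 FPKM in bHLH58-OE, against 3.83, 5.58 and 7.89 in WT (-2.23 with SE 0.20, limma adjusted p = 1.12e-06; -3.59 with a pseudocount of 0.1). NewGene_403 was low in this line, at 4.71, 4.39 and 5.60 FPKM, against 17.5, 18.0 and 16.2 in WT (-1.63 with SE 0.14, limma adjusted p = 5.52e-07). Its other groups lay between 14.3 and 25.6 FPKM, with no call against WT (limma adjusted p from 0.286 to 0.977).

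In bHLH151-OE against WT, 831 loci were called (30.5%, beside 32.0% of all tested IDs), 321 higher (11.8%, all IDs 11.5%) and 510 lower (18.7%, all IDs 20.4%). Falls were 61.4% of called loci as deposited, 44.2% under median-of-ratios scaling and 50.5% under quantile normalization. At 2-fold or more, 63 loci were called (2.31%, all IDs 2.01%), 42 higher (1.54%, all IDs 1.35%) and 21 lower (0.770%, all IDs 0.662%). NewGene_1461 had 13.2, 15.7 and 12.7 FPKM in bHLH151-OE (2.57 with SE 0.12, limma adjusted p = 2.77e-11), and NewGene_1219, listed above, rose as well (2.51 with SE 0.09, limma adjusted p = 2.90e-12). NewGene_7413 had 5.83, 6.26 and 5.61 FPKM in bHLH151-OE, against 22.4, 13.3 and 15.8 in WT (-1.37 with SE 0.16, limma adjusted p = 2.74e-06). NewGene_4490 had 9.15, 9.34 and 9.78 FPKM in bHLH151-OE, against 25.2, 26.7 and 22.2 in WT (-1.30 with SE 0.11, limma adjusted p = 4.29e-08). Neither fall was particular to this line. NewGene_7413 was also called lower in bhlh151-KO (-0.56), bhlh58/151-KO (-0.69) and bHLH58-OE (-0.94). NewGene_4490 was lower still in bhlh151-KO, at a mean of 7.80 FPKM (-1.55, limma adjusted p = 8.96e-10), and was called lower in bhlh58-KO (-0.49) and bhlh58/151-KO (-0.65).

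**Figure D4:**
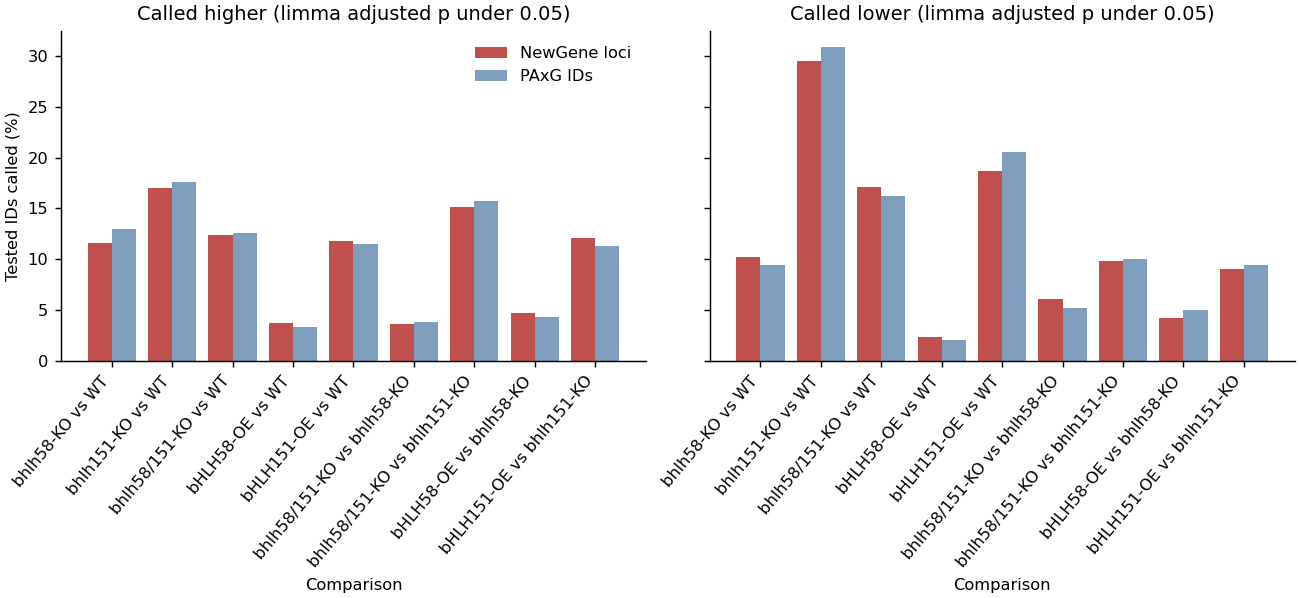
Share of tested IDs (vertical axis, %) called higher (left) and lower (right) in each pairwise comparison, the first-named group relative to the second. NewGene loci (red) and PAxG IDs (blue) stand close in all 9 comparisons, for example 29.5% and 30.9% called lower in bhlh151-KO.

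In bhlh58/151-KO against bhlh58-KO, which sets the added loss of bHLH151 beside the loss of bHLH58 alone in a separate line, 265 loci were called (9.72%, beside 9.09% of all tested IDs). There were 98 rises (3.60%, all IDs 3.81%) and 167 falls (6.13%, all IDs 5.27%). Falls made up 63.0% of calls in the deposited values, and the scaling changed this share. It was 66.9% with TPM rescaling and 54.9% after quantile normalization, but 45.5% when scaled by median of ratios. On leaving out 1 library, the number of called loci was 163 to 226, lowest without bhlh58/151-KO replicate 2. At least 2-fold changes were called in 19 loci (0.697%, all IDs 0.608%), 10 higher (0.367%, all IDs 0.347%) and 9 lower (0.330%, all IDs 0.261%). NewGene_868 had 4.64, 5.97 and 5.55 FPKM in the double knockout, against 0.0994, 1.09 and 0.369 in bhlh58-KO (2.12 with SE 0.18, limma adjusted p = 8.68e-07; 3.50 with a pseudocount of 0.1). Every library of the other groups was at 1.56 FPKM or lower for this locus. NewGene_1295 was uneven, at 59.1, 133 and 81.7 FPKM in the double knockout, against 28.4, 20.3 and 27.5 in bhlh58-KO (1.74 with SE 0.47, limma adjusted p = 0.0365). Its call ended under quantile normalization (limma adjusted p = 0.0543) and on leaving out any 1 of the 6 libraries except bhlh58/151-KO replicate 1 (0.0725 to 0.142). No locus that fell met the naming rule.

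In bhlh58/151-KO against bhlh151-KO, 683 loci were called (25.1%, beside 25.7% of all tested IDs), 414 higher (15.2%, all IDs 15.7%) and 269 lower (9.87%, all IDs 10.0%). The lower share of called loci was 39.4% as deposited, 50.3% under median-of-ratios scaling and 49.4% under quantile normalization. At 2-fold or more, 76 loci were called (2.79%, all IDs 2.67%), 30 higher (1.101%, all IDs 1.35%) and 46 lower (1.69%, all IDs 1.32%). NewGene_5669 had 51.4, 87.4 and 56.9 FPKM in the double knockout, against 18.3, 9.59 and 10.9 in bhlh151-KO (2.26 with SE 0.33, limma adjusted p = 0.000161). NewGene_5492 had 129, 207 and 129 FPKM in the double knockout, against 42.0, 27.4 and 30.9 in bhlh151-KO (2.16 with SE 0.26, limma adjusted p = 2.43e-05). NewGene_1461 and NewGene_6264, both high in bhlh151-KO, were lower in the double knockout. NewGene_1461 had 4.59, 4.36 and 4.91 FPKM there (-3.11 with SE 0.12, limma adjusted p = 6.37e-13), and NewGene_6264 differed by -2.40 (SE 0.10 and limma adjusted p = 8.45e-13).

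Overexpression and knockout lines of the same gene were also compared directly, with no WT library in the contrast. In bHLH58-OE against bhlh58-KO, 244 loci were called (8.95%, beside 9.29% of all tested IDs), 129 higher (4.73%, all IDs 4.37%) and 115 lower (4.22%, all IDs 4.92%). On leaving out 1 library, the number of called loci was 144 to 202, lowest without bHLH58-OE replicate 3. At 2-fold or more there were 22 (0.807%, all IDs 0.559%), 8 higher (0.293%, all IDs 0.159%) and 14 lower (0.514%, all IDs 0.400%). NewGene_1714 had 151, 171 and 186 FPKM in bHLH58-OE, against 67.5, 68.9 and 64.9 in bhlh58-KO (1.32 with SE 0.07, limma adjusted p = 7.17e-10). In WT it had 163, 141 and 161 FPKM, within the range of bHLH58-OE or just below it. NewGene_2885 had 5.67, 7.07 and 7.28 FPKM in bHLH58-OE, against 2.50, 2.39 and 1.45 in bhlh58-KO (1.31 with SE 0.17, limma adjusted p = 5.09e-05), and 7.10, 7.93 and 7.89 in WT. Neither low level was particular to bhlh58-KO. In bhlh151-KO, NewGene_1714 averaged 62.6 FPKM (-1.29 against WT, limma adjusted p = 2.71e-11) and NewGene_2885 0.755 FPKM (-2.32 against WT, limma adjusted p = 1.08e-09). Both loci were also called lower than WT in bhlh58/151-KO (-0.47 and -1.08) and in bHLH151-OE (-0.36 and -0.97).

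NewGene_4484 and NewGene_1228 were the 2 loci listed at 0 in every library of a group and at 5 FPKM or more in every library of another (0.0734% of the loci, beside 6 PAxG IDs or 0.0157%). NewGene_4484 was listed at 0 in the 3 bHLH58-OE libraries and at 9.25, 5.48 and 7.01 FPKM in bhlh58-KO (limma adjusted p = 1.39e-11). It had 8.87 ± 0.698 FPKM in bhlh151-KO, 8.70 ± 0.346 in bhlh58/151-KO and 7.35 ± 0.710 in bHLH151-OE, against 3.64, 3.37 and 3.35 FPKM in WT. Every library of these groups, and every library of bhlh58-KO, was above WT. No fold against bHLH58-OE is given, since a listed 0 may be an estimate that failed. The adjusted p rests on the same listed values and has the same limit, as do the fold and p of NewGene_1228 below.

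NewGene_1228 had 1.47, 1.06 and 0 FPKM in bHLH58-OE, against 8.23, 10.5 and 8.20 in bhlh58-KO (-2.53 with SE 0.73, limma adjusted p = 0.0481). It was listed at 0 in all bHLH151-OE libraries, in 1 bhlh151-KO library (the others 4.49 and 5.57) and in 1 bhlh58/151-KO library (the others 5.80 and 4.19). In WT it had 4.44, 5.78 and 3.78 FPKM. The call between bHLH58-OE and bhlh58-KO ended with a pseudocount of 0.1 (log2 fold change -3.99, limma adjusted p = 0.183), with the replicate block (0.0569), with TPM rescaling (0.0782), under median-of-ratios scaling (0.0526) and on leaving out each of the 6 libraries in turn (0.0650 to 0.170).

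In bHLH151-OE against bhlh151-KO, 575 loci were called (21.1%, beside 20.8% of all tested IDs), 330 higher (12.1%, all IDs 11.4%) and 245 lower (8.99%, all IDs 9.39%). Under median-of-ratios scaling 303 were higher and 289 lower, and under quantile normalization 289 and 243. At 2-fold or more, 50 loci were called (1.83%, all IDs 1.49%), of which 17 were higher (0.624%, all IDs 0.879%) and 33 lower (1.21%, all IDs 0.613%). NewGene_5492 had 232, 343 and 219 FPKM in bHLH151-OE, against 42.0, 27.4 and 30.9 in bhlh151-KO (2.94 with SE 0.26, limma adjusted p = 2.16e-06). NewGene_5669 had 80.9, 143 and 87.9 FPKM in bHLH151-OE, against 18.3, 9.59 and 10.9 in bhlh151-KO (2.92 with SE 0.33, limma adjusted p = 2.58e-05). In WT, NewGene_5492 had 72.8, 75.6 and 60.0 FPKM, between both groups, and NewGene_5669 had 24.1, 25.2 and 14.8 FPKM, which overlapped with bhlh151-KO. NewGene_5492 was called lower than WT in bhlh151-KO (-1.05, limma adjusted p = 0.00474) and higher than WT in bHLH151-OE (1.89, limma adjusted p = 9.27e-05), whereas the bhlh151-KO change of NewGene_5669 was not called (-0.70, limma adjusted p = 0.102). The rise above WT was not particular to bHLH151-OE. NewGene_5492 was also called higher in bhlh58-KO (0.97), bhlh58/151-KO (1.12) and bHLH58-OE (1.05), with limma adjusted p = 0.0174, 0.00621 and 0.0336. NewGene_5669 was called higher in the same lines (1.47, 1.56 and 1.69, limma adjusted p = 0.00641, 0.0034 and 0.00973) and in bHLH151-OE (2.22).

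NewGene_1295 had 11.9, 17.1 and 10.7 FPKM in bHLH151-OE, against 69.1, 60.4 and 57.9 in bhlh151-KO (-2.18 with SE 0.47, limma adjusted p = 0.00503). Its WT libraries were uneven, at 13.5, 38.7 and 7.57 FPKM. NewGene_1461 was also lower in bHLH151-OE than in bhlh151-KO (-1.71 with SE 0.12, limma adjusted p = 5.78e-09), with the values given above, although both lines were above WT.

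**Figure D5:**
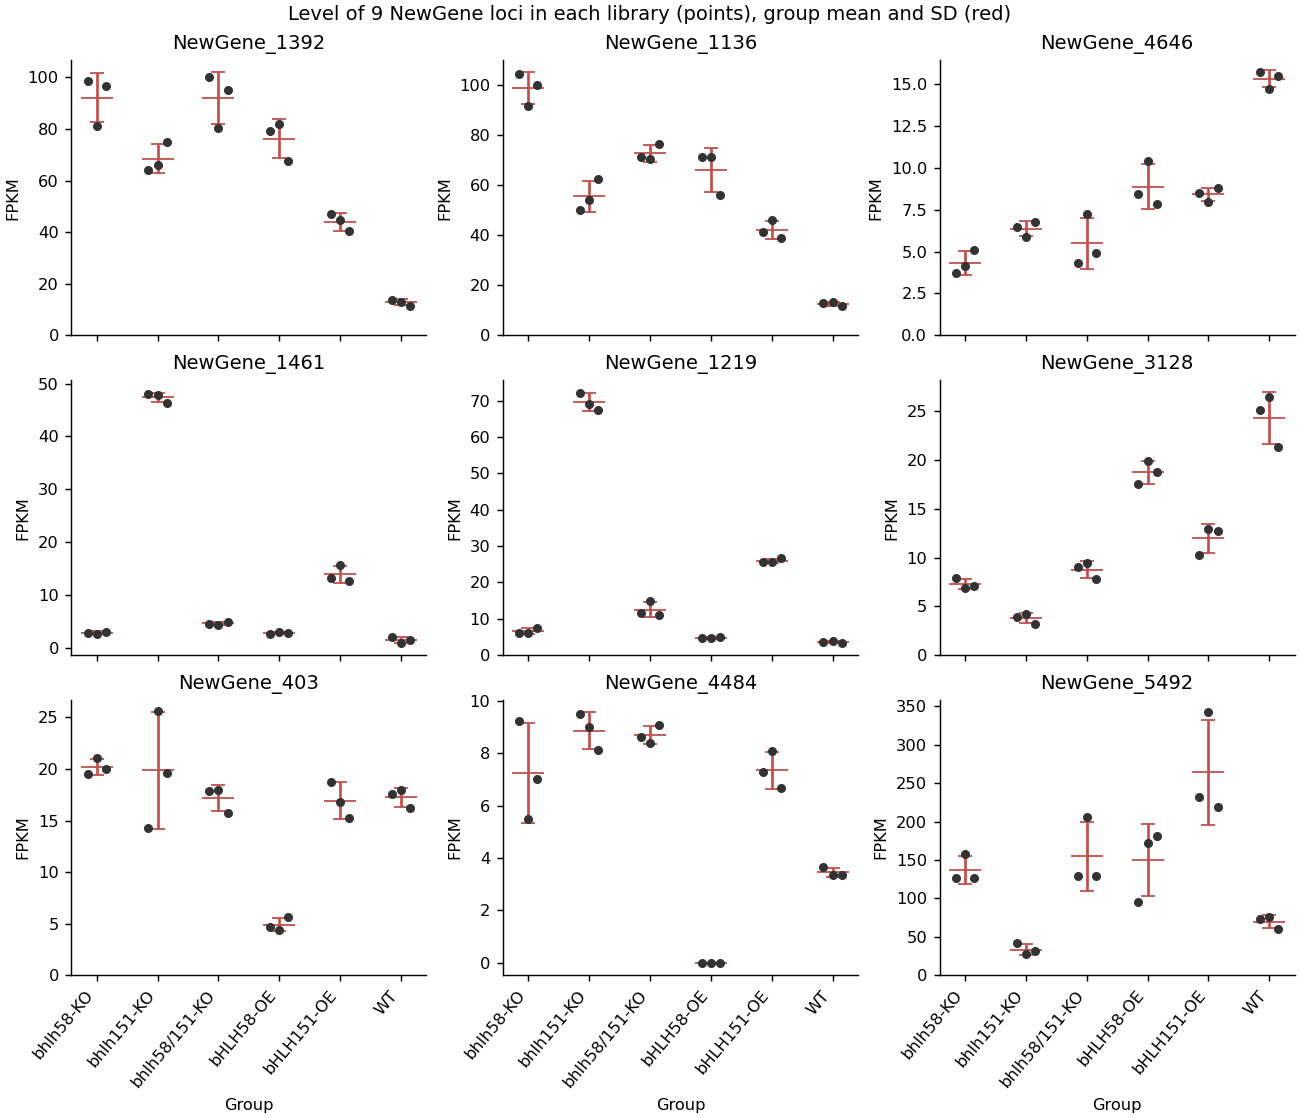
FPKM (vertical axes, linear, from 0) of 9 named NewGene loci in each library by group. Points are libraries and red bars the mean and SD (n = 3); NewGene_1392 and NewGene_1136 are low in WT alone, NewGene_1461 and NewGene_1219 peak in bhlh151-KO, and NewGene_4484 is listed at 0 in bHLH58-OE.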

How the data were processed

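The authors deposited 1 table of FPKM values per ID and library, a unit given by the name of the deposited table and not contradicted by its values. Aligner, quantifier, genome build, annotation and the definition of the NewGene loci: not given in the sources used here. Summed FPKM per library lay between 514745 and 536562, which does not measure depth. Ratios of values under 0.3 FPKM between libraries (153 pairs) showed no whole-read steps, with at most 1.58% of ratios in a bin of 0.02 on the log2 scale, so depth is unknown. No 2 columns were identical, and correlations over the loci ran from 0.980 to 0.986 within groups.

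Groups came from the sample titles. The 40951 IDs that reached 1 FPKM in 3 or more libraries were transformed as log2(FPKM + 1) and entered 1 limma fit (limma 3.58.1, R 4.3.3, eBayes with trend and robust estimation, 6 group means, 12 residual degrees of freedom). P-values were adjusted by Benjamini-Hochberg within each of 9 pairwise comparisons and within the 6-group F-test, over all tested IDs. On simulated data for bhlh151-KO against WT (40951 IDs), 60 of 67 2-fold and 33 of 67 1.5-fold changes of NewGene loci were recovered, with 4 unchanged IDs called. Other comparisons with WT had from 3 (bhlh58-KO) to 11 (bHLH151-OE) unchanged IDs called. Beyond these changes and 66 of 4-fold, all IDs were flat with normal noise. In the data 48.4% of IDs were called for bhlh151-KO, so neither the recovery nor the number of false calls carries over. The changed loci had a WT mean of at least 1 on the log2 scale, so lower ones are not covered.

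The named loci were the 3 strongest, up to 2 rises and 2 falls per comparison (called, at least 2-fold, no overlap of libraries, at least 5 FPKM in the higher group), 2 each with the smallest p and smallest variation, those at 0 in 1 group and 5 FPKM or more in another, and the 2 at the threshold. The members, rules and lists were chosen with earlier results of these data known. Same-numbered libraries of different groups did not deviate together (median correlation 0.0054, at most 0.074, 45 pairs), so replicate numbers were not taken as pairs. Alternatives were another pseudocount, 2 other filters, 3 scalings, a replicate block, other estimation of the spread, fits of 2 groups and leaving out each library.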

Additional observations from a re-analysis of the deposited data

How the results depend on the processing

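The number of called NewGene loci stayed within 1.5 times its value in all 10 tests with a pseudocount of 0.1, without a filter, under the 3 scalings, without trend and robust estimation, and in fits of only 2 groups (9 pairwise tests). With the replicate block it was 599 for bhlh58-KO, 1257 for bhlh151-KO, 806 for bhlh58/151-KO, 163 for bHLH58-OE and 819 for bHLH151-OE against WT. The block was 1 of 5 settings, leaving libraries out aside, that ended a call among the 34 named changes, and that call was NewGene_1228 in bHLH58-OE against bhlh58-KO. A mean of at least 5 FPKM left 1128 loci in the fit, so counts were lower by construction: 365 (bhlh58-KO), 640 (bhlh151-KO), 440 (bhlh58/151-KO) and 459 (bHLH151-OE) against WT, 167 and 409 for the double knockout against bhlh58-KO and bhlh151-KO, and 748 in the 6-group test.

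Without 1 library, counts against WT ran from 461 to 501 (bhlh58-KO), 1114 to 1164 (bhlh151-KO), 633 to 731 (bhlh58/151-KO), 102 to 134 (bHLH58-OE) and 669 to 718 (bHLH151-OE). They ran from 163 to 226 and 560 to 592 for the double knockout against bhlh58-KO and bhlh151-KO, from 144 to 202 and 446 to 544 for overexpression against knockout of bHLH58 and bHLH151, and from 1428 to 1525 in the 6-group test. None of the 34 named changes reversed under any setting run. With all NewGene IDs in place of the expressed ones, the share of summed FPKM was 7.06% in bhlh58-KO, 6.87% in bhlh151-KO, 6.94% in bhlh58/151-KO, 7.09% in bHLH58-OE, 6.86% in bHLH151-OE and 6.91% in WT.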

Other observations

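The 2097 NewGene IDs outside the rule were weak, with a median of 0.137 FPKM as a mean over libraries. At least 1 library reached 1 FPKM for 288 of them, and none reached 5 FPKM. The highest value, 3.79 FPKM, was that of NewGene_757 in bHLH151-OE replicate 1, an ID chosen after its value was seen.

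The numbers in the IDs run from 1 to 7494, and 4823 of them are in the table. What the numbers stand for is not given in the sources used here. Over 1111 pairs of expressed loci with consecutive numbers, the median Pearson correlation of log2(FPKM + 1) across libraries was 0.048 (quartiles -0.20 and 0.29), and over 978 pairs that are 50 numbers apart it was 0.032 (quartiles -0.23 and 0.27). A value above 0.8 was found in 1.53% of the consecutive pairs and 0.716% of the pairs 50 apart. The pairs share libraries and loci, so these values are descriptions without a test.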
